A study of Homo sapiens with 4 samples.

Results

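The genes described here are 10 ligands and receptors of bone morphogenetic protein (BMP) and transforming growth factor β (TGF-β) signaling, chosen by name from the 58735 genes listed for each library. They comprise the ligands BMP2, BMP4, BMP7, TGFB1 and TGFB2, the type I receptors BMPR1A, ACVR1 and TGFBR1, and the type II receptors BMPR2 and TGFBR2. RNA of HCT116, a human colorectal carcinoma cell line, was sequenced 48 h after transfection in 4 libraries. Both control libraries came from cells given a control small interfering RNA (siRNA), and the other 2 libraries are labelled as cells given siRNA against KIF26B, a kinesin family gene. No other treatment is named for either group. More than 1 siRNA against KIF26B was used. Which one each library received, and whether the libraries came from separate cultures, is not given in the labels. The p-values below therefore measure the spread between these libraries. That spread may be technical and, in the KIF26B siRNA group, may also hold a difference between siRNAs, which cannot be told apart. The questions addressed were which of the 10 genes HCT116 cells express and whether their levels differ with the KIF26B siRNA.

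BMP and TGF-β ligands are secreted dimers that bring together type I and type II receptors, both of which are serine/threonine kinases. The type II receptor phosphorylates the type I receptor, which then phosphorylates SMAD transcription factors. BMP2 and BMP4 act mainly through BMPR1A or BMPR1B, BMP7 also through ACVR1, and TGFB1 and TGFB2 through TGFBR2 and TGFBR1. In the intestine, BMP signaling restrains stem cells and favours differentiation, and TGF-β signaling restrains the growth of epithelial cells and is often lost in colorectal cancer.

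HCT116 is a mismatch repair-deficient line, and such lines, HCT116 among them, are known for frameshift mutations in a run of adenines in the coding sequence of TGFBR2. The run is shown because an mRNA level of TGFBR2 in this line does not tell whether a full-length receptor is made. It lies in exon 3 of the annotated coding transcript with 7 exons and in exon 4 of the one with 8 exons. The stretch shown, with 20 bases on each side of the run, is at chr3:30691852-30691901 of GRCh37 on the plus strand. The reference sequence of 50 coding bases, from the GENCODE transcripts, has the run of 10 adenines in capitals. The sequence in these cells was not read.
TGFBR2 coding run: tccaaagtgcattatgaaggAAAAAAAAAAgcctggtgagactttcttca

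TGFB1 and TGFB2 are closely related ligands that differed widely in level, since TGFB1 was among the more abundant genes and TGFB2 stayed below 1 FPKM in every library. BMP4 and BMP2 differed by more, but RefSeq promoters were present here for 8 of the 10 genes, without BMP2 and BMP7. The 250 bases before the RefSeq start of each gene are therefore shown (build GRCh38.p14, TGFB1 on the minus strand at chr19:41353923-41354172, TGFB2 on the plus strand at chr1:218345086-218345335). Capitals mark GC boxes, searched as GGGCGG on both strands, and TATA boxes, searched as TATAAA on both strands.
TGFB1: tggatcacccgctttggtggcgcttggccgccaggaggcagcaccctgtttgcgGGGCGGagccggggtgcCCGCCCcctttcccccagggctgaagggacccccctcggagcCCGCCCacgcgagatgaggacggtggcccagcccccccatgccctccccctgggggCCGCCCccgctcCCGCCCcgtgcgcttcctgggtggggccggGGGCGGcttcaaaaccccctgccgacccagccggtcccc
TGFB2: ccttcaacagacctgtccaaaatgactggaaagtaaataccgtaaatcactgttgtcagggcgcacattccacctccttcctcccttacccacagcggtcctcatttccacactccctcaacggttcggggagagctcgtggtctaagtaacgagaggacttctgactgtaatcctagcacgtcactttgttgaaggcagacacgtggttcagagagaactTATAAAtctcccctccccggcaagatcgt

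The TGFB1 stretch held 6 GC boxes, no TATA box and 21 CpG dinucleotides at 76.8% G and C. The TGFB2 stretch held 0 GC boxes, 11 CpG dinucleotides at 50.4% G and C, and 1 TATA box whose first base lies 29 bases before the start. Of the 35116 RefSeq promoters of this length, 42.6% held a GC box and 10.7% a TATA box, and the median CpG count was 11. These matches describe the letters of the reference and were not tested against expression.

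Values are fragments scaled by exon length and library size (FPKM), which can be compared between genes, although the exon length behind each value depends on the isoforms annotated. The reads on genes, recovered from the steps between the values, summed to 19016643 to 24633926 per library, and these sums are approximate. Of 9 colon epithelial markers, 7 (including EPCAM, CDH1 and KRT18) were at or above 1 FPKM in every library, while VIL1 and CEACAM5 did not reach 0.1 FPKM. Of 4 leukocyte, 5 fibroblast and 2 endothelial markers, all but the fibroblast gene COL1A1 were below 1 FPKM in every library. The targeted gene did not fall in both libraries labelled KIF26B siRNA. KIF26B was at 0.110 and 0.205 FPKM in the control libraries, at 0.140 FPKM in the library labelled KIF26B siRNA 1, between both controls, and at 0.0307 FPKM in the library labelled KIF26B siRNA 2. These values rest on 31, 73, 43 and 8 reads. Both libraries also differed more from each other than the controls did, with a median absolute log2 difference of 0.28 against 0.07 over the 14523 genes tested. The tested ligands and receptors among the genes introduced at the start are therefore given for each library as well as for the group. For several other genes of the pathway named further below, only the group difference, a control mean or both are given.

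HCT116 cells expressed 8 of the 10 genes, and 2 ligands, BMP2 and TGFB2, stayed below 1 FPKM. In the control libraries BMP4 stood highest, followed by TGFB1 and TGFBR2, and these 3 genes lay above 86.6%, 85.6% and 80.1% of all genes tested. ACVR1, TGFBR1, BMPR2, BMPR1A and BMP7 followed in this order between 7.59 and 3.06 FPKM (means of both control libraries). The ranges of neighbouring genes in the order were apart in the control libraries at every step. Over all 4 libraries the ranges stayed apart at 4 steps only, namely TGFBR2 above ACVR1, TGFBR1 above BMPR2, BMP7 above TGFB2, and TGFB2 above BMP2.

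**Figure D1:**
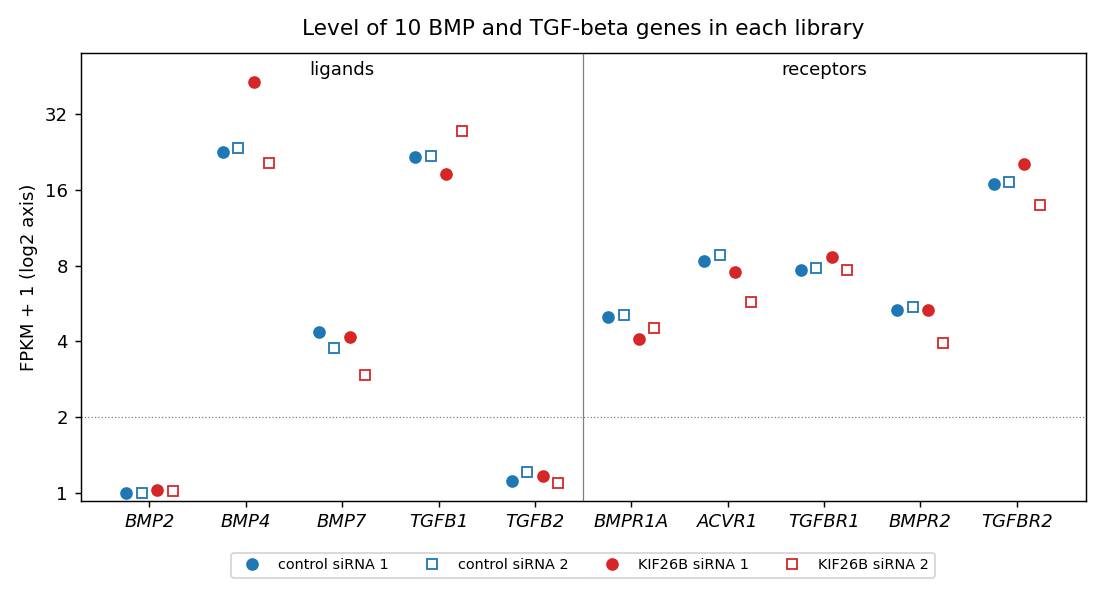
FPKM + 1 (log2 axis) of the 10 genes in each library, with blue for control siRNA, red for libraries labelled KIF26B siRNA, filled circles for replicate 1 and open squares for replicate 2. BMP2 and TGFB2 lie below the dotted line, which stands for 1 FPKM, and BMP4 in the library labelled KIF26B siRNA 1 is the highest point at 42.1 FPKM.

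None of the 8 expressed genes passed the test for a difference between the groups. Differences are given as KIF26B siRNA minus control siRNA on the log2(FPKM + 1) scale, from limma with Benjamini–Hochberg adjustment over all genes tested. This scale understates changes of low genes. At an unadjusted p below 0.05, 0 of the 8 genes were lower and 0 were higher, where 8.68% and 7.74% of all genes tested were. At the study's thresholds, an unadjusted p below 0.05 and a log2 difference beyond 1, 0 members were lower and 0 higher, against 0.606% and 0.813% of all genes. At an adjusted p below 0.05 limma called 0 of the 14523 genes (0% lower and 0% higher), of which 2385 had an unadjusted p below 0.05, and the smallest adjusted p among the members was 0.371. The median difference was −0.12 over the 8 members and −0.01 over all genes. In 3 of the 8 genes, the receptors BMPR1A, ACVR1 and BMPR2, both libraries labelled KIF26B siRNA lay below both controls, which 27.8% of all genes did. In 0 of the 8 both lay above, which 24.9% of all genes did. In bulk samples, fewer cells of a type and less RNA per cell cannot be told apart. With 2 libraries a group, the smallest p an exact two-sided permutation test could give is 0.333, so none was run.

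**Figure D2:**
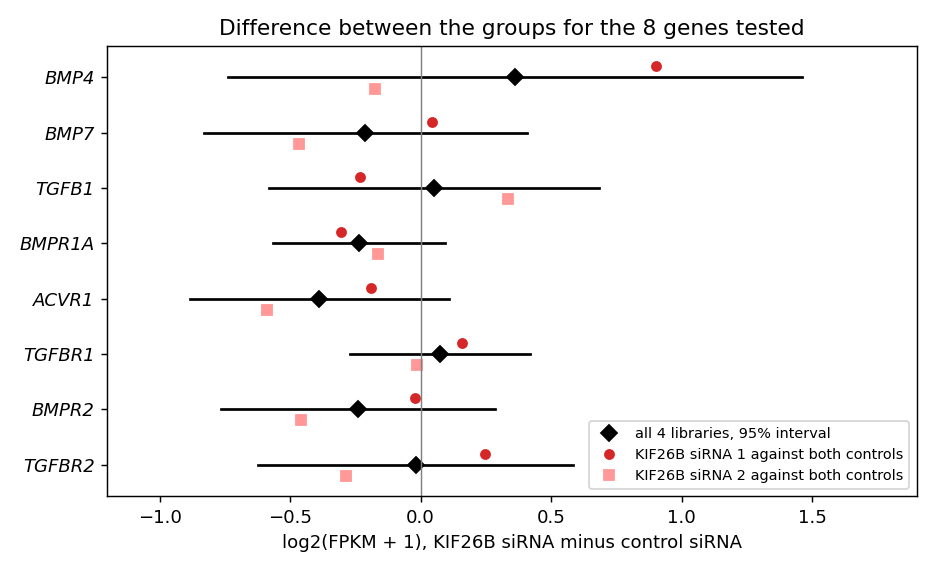
Log2(FPKM + 1) difference, KIF26B siRNA minus control siRNA, for the 8 genes tested. Black diamonds and bars are the limma estimate from all 4 libraries with its 95% interval, and every interval includes 0. Red circles and pink squares set the libraries labelled KIF26B siRNA 1 and 2 alone against both controls, and they fall on opposite sides of 0 for BMP4, BMP7, TGFB1, TGFBR1 and TGFBR2.

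BMP4, a BMP ligand that colorectal cancer cells can make themselves, gave the largest disagreement between both libraries labelled KIF26B siRNA. BMP4 (ENSG00000125378, chromosome 14 of GRCh37, 54416454 to 54425479, minus strand) was at 21.6 and 22.5 FPKM in the control libraries and at 42.1 and 19.4 FPKM in the libraries labelled KIF26B siRNA 1 and 2. The first was 1.91 times the control mean and the second lay below both controls. The group difference was 0.36 (standard error 0.40, 95% interval −0.74 to 1.46, adjusted p = 0.677 from limma). Between both libraries labelled KIF26B siRNA, BMP4 differed by 1.08 on the log2 scale, more than 95.7% of all genes tested. Against both controls, the library labelled KIF26B siRNA 1 alone stood at 0.90 (adjusted p = 0.0606 from limma) and the library labelled KIF26B siRNA 2 alone at −0.18 (adjusted p = 0.158 from limma). In such a fit with 1 library on one side, the spread comes from the control pair alone and the lone library is assumed to vary like it.

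TGFB1, the TGF-β ligand found most widely in adult tissues, disagreed in the other direction. TGFB1 (ENSG00000105329, chromosome 19, 41807492 to 41859827, minus strand) was at 20.7 and 20.9 FPKM in the control libraries, at 17.5 FPKM in the library labelled KIF26B siRNA 1 and at 26.5 FPKM in the library labelled KIF26B siRNA 2. The controls thus lay between the other 2 libraries. The group difference was 0.05 (standard error 0.23, 95% interval −0.58 to 0.68, adjusted p = 0.921 from limma). Each library alone against the controls gave −0.23 and 0.34 (adjusted p = 0.109 and 0.0600 from limma). BMP4 and TGFB1 were the 2 most abundant ligands of the list in all 4 libraries, with BMP4 above TGFB1 in 3 of them and below it in the library labelled KIF26B siRNA 2.

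BMP7, a ligand that also signals through ACVR1, was lower in 1 library only. BMP7 (ENSG00000101144, chromosome 20, 55743809 to 55841697, minus strand) was at 3.36 and 2.76 FPKM in the control libraries and at 3.17 and 1.93 FPKM in the libraries labelled KIF26B siRNA 1 and 2. The value of the first lay between both controls. The group difference was −0.21 (standard error 0.22, 95% interval −0.83 to 0.41, adjusted p = 0.666 from limma). Without the library labelled KIF26B siRNA 2 it was 0.04.

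BMP2, the closest relative of BMP4, was at the limit of detection. BMP2 (ENSG00000125845, chromosome 20, 6748333 to 6760893, plus strand) had 0 reads in both control libraries, and 2 reads and 1 read in the libraries labelled KIF26B siRNA. A count of 0 allows up to 0.0425 and 0.0338 FPKM in the control libraries (3 reads each), which is above the 0.0260 and 0.0154 FPKM of the other libraries, so no difference was detectable at this depth. TGFB2 (ENSG00000092969, chromosome 1, 218518678 to 218617961, plus strand), the close relative of TGFB1 whose promoter is shown above, was at 0.119, 0.205, 0.164 and 0.0967 FPKM in the same order, from 12, 26, 18 and 9 reads. The 95% Poisson intervals of these 4 values overlapped, from 0.0613 to 0.207 FPKM in control replicate 1 and from 0.0442 to 0.184 FPKM in the library labelled KIF26B siRNA 2. Intervals and floors cover counting error only. Both genes were below the filter of a mean of 1 FPKM and were outside the counts above. Exons of TGFB1, TGFB2 and BMP4 overlap those of other genes on the opposite strand (HNRNPUL1, TGFB2-AS1 and the unnamed ENSG00000287156), and whether the counting used strand is not given in the sources used here. TGFB2 also overlaps TGFB2-OT1, and the receptor gene BMPR2 the unnamed ENSG00000289490, on the same strand.

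Among the receptors, ACVR1 showed the largest group difference of the 8 genes tested. ACVR1 (ENSG00000115170, chromosome 2, 158592763 to 158732842, minus strand), a type I receptor for BMP7 and activin-related ligands, was at 7.35 and 7.82 FPKM in the control libraries and at 6.52 and 4.72 FPKM in the libraries labelled KIF26B siRNA 1 and 2. Both of the latter were below both controls. The group difference was −0.39 (standard error 0.18, 95% interval −0.88 to 0.11, adjusted p = 0.371 from limma). Set alone against the controls, the libraries gave −0.19 (adjusted p = 0.180 from limma) and −0.59 (adjusted p = 0.0483 from limma). The second passed the threshold of 0.05 in a fit where 17.3% of all genes had an adjusted p below 0.05 and 8.59% were lower at it.

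BMPR1A and BMPR2, the type I and type II receptors that BMP2 and BMP4 engage, were also lower in both libraries without passing the test. BMPR1A (ENSG00000107779, chromosome 10, 88516353 to 88692582, plus strand) was at 4.01 and 4.08 FPKM in the control libraries and at 3.08 and 3.50 FPKM in the libraries labelled KIF26B siRNA. Its group difference was −0.24 (standard error 0.12, 95% interval −0.56 to 0.09, adjusted p = 0.399 from limma). BMPR1A was the receptor with the smallest gap between both libraries labelled KIF26B siRNA (−0.14 on the log2 scale), and each of them alone lay below the controls, at −0.31 and −0.16. BMPR2 (ENSG00000204217, chromosome 2, 203241050 to 203432474, plus strand) was at 4.33 and 4.49 FPKM in the control libraries and at 4.33 and 2.93 FPKM in the other 2. The library labelled KIF26B siRNA 1, at 4.331 FPKM, was just below the lower control at 4.332 FPKM, so that the separation of the groups rested on the library labelled KIF26B siRNA 2. The group difference of BMPR2 was −0.24 (standard error 0.19, 95% interval −0.76 to 0.28, adjusted p = 0.567 from limma), and it was −0.02 without that library. With that library alone, it was −0.46 (adjusted p = 0.0499 from limma), in the same fit where 17.3% of all genes had an adjusted p below 0.05.

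The TGF-β receptors lay on the same side of the control mean as each other in each library labelled KIF26B siRNA, and both changed side between the libraries. TGFBR2 (ENSG00000163513, chromosome 3, 30648093 to 30735634, plus strand), the type II receptor with the adenine run shown above, was the most abundant receptor of the list, at 15.8 and 16.2 FPKM in the control libraries. It was at 19.2 FPKM in the library labelled KIF26B siRNA 1 and at 13.0 FPKM in the library labelled KIF26B siRNA 2, on either side of the controls. The group difference was −0.02 (standard error 0.22, 95% interval −0.62 to 0.58, adjusted p = 0.971 from limma), with 0.25 and −0.29 for each library alone. TGFBR1 (ENSG00000106799, chromosome 9, 101866320 to 101916474, plus strand), its type I partner, was at 6.67 and 6.85 FPKM in the control libraries and at 7.67 and 6.70 FPKM in the other 2. The first was above both controls and the second lay between them. Its group difference was 0.07 (standard error 0.12, 95% interval −0.27 to 0.42, adjusted p = 0.790 from limma). With TGFBR1, differences below −0.27 or above 0.42 on the log2 scale lay outside the interval, whereas that of BMP4 reached from −0.74 to 1.46.

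**Figure D3:**
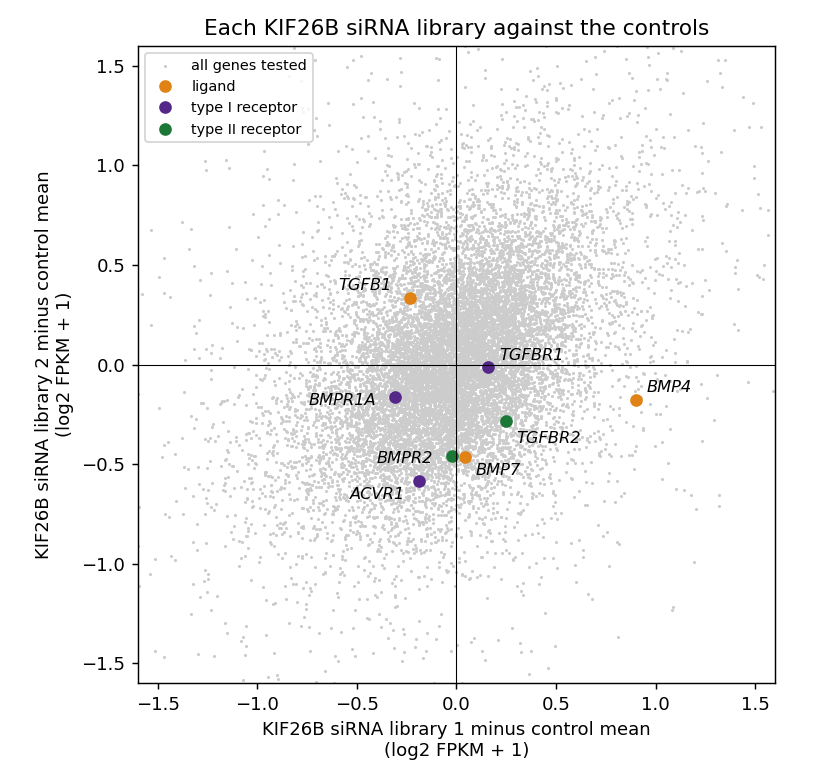
Log2(FPKM + 1) of the library labelled KIF26B siRNA 1 (x axis) and of the library labelled KIF26B siRNA 2 (y axis), each minus the mean of both control libraries. Coloured points are the 8 genes tested and grey points all 14523 genes tested, of which 171 lie outside the axes. The axes share the control mean, so a slope of the grey points is no result. Of the coloured points, 5 lie where the signs of both libraries differ and BMPR1A, ACVR1 and BMPR2 lie where both are below 0. The shares of the grey points in these areas were not counted.

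All 8 genes differed more between both libraries labelled KIF26B siRNA than between both control libraries. The medians over all genes tested differed the same way (0.28 against 0.07), and the share of all genes that did so was not counted. The library labelled KIF26B siRNA 1 was above the library labelled KIF26B siRNA 2 in BMP4, BMP7, ACVR1, TGFBR1, BMPR2 and TGFBR2, and below it in TGFB1 and BMPR1A. Removing the library labelled KIF26B siRNA 1, in which KIF26B was not lower, left 5 of the 8 genes with an unadjusted p below 0.05, where 46.6% of all genes had one, of which 4 were lower and 1 higher. Removing the library labelled KIF26B siRNA 2 left 4 of the 8, where 39.9% of all genes had one, of which 2 were lower and 2 higher. The group difference was on the same side of 0 with either library alone for BMPR1A, ACVR1 and BMPR2, and on opposite sides for the other 5 genes. The share of all genes on opposite sides was not counted either, so neither count sets these 8 genes apart.

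ACVR1, as the tested member with the largest group difference, was compared with all other genes by the Euclidean distance of their centred log2(FPKM + 1) profiles over the 4 libraries. The nearest were POP7 (distance 0.020), CCT7 (0.025) and CAVIN3 (0.029). POP7 was at 43.8, 45.7, 39.1 and 29.9 FPKM in the order of the libraries used above. With 4 libraries such likeness is common, and 122 genes lay within a distance of 0.1.

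The rest of the pathway was followed with 8 lists of 102 genes, of which 50 were tested and 17 were listed at 0 in every library. The lists do not include the 10 genes above. At an unadjusted p below 0.05, 16 of the 50 genes were lower and 2 higher (all genes tested, 8.68% and 7.74%), and their median difference was −0.29 against −0.01 over all genes. The share of reads on mitochondrial genes was also higher in the libraries labelled KIF26B siRNA, at 9.67% and 7.77% against 6.88% and 6.90% in the control libraries, and its part in these counts was not tested. Leaving out control replicate 1 left 6 lower and 0 higher genes of the lists (all genes, 1.67% and 1.93%), and leaving out control replicate 2 left 7 and 0 (1.61% and 1.82%). Leaving out the library labelled KIF26B siRNA 1 gave 25 and 6 (all genes, 23.7% and 22.9%), and leaving out the library labelled KIF26B siRNA 2 gave 23 and 8 (22.4% and 17.5%). No gene of the lists had an adjusted p below 0.05 with all libraries. The lists were chosen with results of these data known, and are no independent evidence of a direction.

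Most other ligands were below the filter of a mean of 1 FPKM, and 1 of 11 TGF-β and activin ligands and 8 of 17 BMP and growth differentiation factor (GDF) ligands were listed at 0 in every library. Of the TGF-β and activin ligands only GDF11 passed the filter, at 1.13 and 1.21 FPKM in the control libraries and 1.51 and 0.850 FPKM in the others (log2 difference −0.01, adjusted p = 0.981 from limma). Of the BMP and GDF ligands 5 were tested, and 2, AMH and BMP8A, were lower at an unadjusted p below 0.05 from limma (all genes tested, 8.68%). BMP8A, named here after its values were seen, was at 2.44 and 2.23 FPKM in the control libraries and 1.41 and 1.44 FPKM in the others (log2 difference −0.46, adjusted p = 0.248 from limma). GDF15, a stress-induced relative of the family, was by far the highest at 232.7 and 244.1 FPKM in the control libraries and 268.0 and 213.0 FPKM in the others, on either side of the controls (log2 difference 0.00). AMH, the anti-Müllerian hormone, was lower, at 11.7 and 12.4 FPKM in the control libraries and 8.31 and 9.63 FPKM in the others (log2 difference −0.39, adjusted p = 0.289 from limma).

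Of 7 other receptors 4 were tested, and all 4 differences were below 0, where the median over all genes tested was −0.01. Only ACVR1C, named here after its values were seen, had an unadjusted p below 0.05 from limma (all genes tested, 8.68% lower). It was at 1.43 and 1.47 FPKM in the control libraries and 0.626 and 0.855 FPKM in the others (log2 difference −0.50, adjusted p = 0.253 from limma). ACVR1B, the type I receptor for activin, was the most abundant at 9.72 and 10.9 FPKM in the control libraries and 10.3 and 6.33 FPKM in the others (log2 difference −0.31, adjusted p = 0.568 from limma). Its value in the library labelled KIF26B siRNA 1 lay between both controls. ACVR2B, a type II receptor shared by activins and BMPs, was at 3.18, 3.40, 3.15 and 3.002 FPKM (log2 difference −0.07). TGFBR3, the co-receptor betaglycan, was lower at an unadjusted p of 0.0147 from limma. It was at 3.82 and 3.90 FPKM in the control libraries and 2.47 and 1.77 FPKM in the others (log2 difference −0.65, adjusted p = 0.248 from limma). It was the 1 gene with such a p among the 5 co-receptors and pseudoreceptors tested, where CD109 at 26.6 FPKM and BAMBI at 6.11 FPKM in the control libraries (means) stood highest. Of 17 extracellular antagonists 5 were tested, 0 had an unadjusted p below 0.05 from limma with all 4 libraries, and TWSG1 and NBL1 stood highest at 21.4 and 15.95 FPKM in the control libraries (means).

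Latency and activation genes, SMAD genes and target genes held 12 of the 16 genes that were lower at an unadjusted p below 0.05 from limma. They also held most of the genes tested, with 8, 13 and 9 of the 50. Of 8 latency and activation genes tested, 4 were lower and 0 higher at this threshold, where 8.68% and 7.74% of all genes tested were. THBS1, which can activate latent TGF-β, was at 4.46 and 4.58 FPKM in the control libraries and 1.31 and 1.499 FPKM in the others (log2 difference −1.198). ITGAV, the integrin αV subunit that binds latent TGF-β, was at 17.2 and 16.4 FPKM in the control libraries and 9.41 and 9.07 FPKM in the others (log2 difference −0.80). Both had an adjusted p of 0.242 from limma. The other 2 lower genes, named here after their values were seen, were LTBP1 (−0.44) and FURIN, a protease that cleaves TGF-β precursors, which was at 35.8 and 37.8 FPKM in the control libraries and 29.5 and 24.5 FPKM in the others (log2 difference −0.44, adjusted p = 0.288 from limma). The TGF-β binding proteins LTBP4 and LTBP3 had the highest means of this list over all 4 libraries. They were at 38.3 and 32.8 FPKM in the control libraries (means), with log2 differences of 0.32 and 0.19 and adjusted p = 0.685 and 0.511 from limma.

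Of 13 SMADs and SMAD regulators tested, 5 were lower and 1 higher at an unadjusted p below 0.05 from limma (all genes tested, 8.68% and 7.74%). The inhibitory SMAD6 was at 2.35 and 2.21 FPKM in the control libraries and 1.203 and 0.685 FPKM in the others (log2 difference −0.77), beside SMAD7 (−1.54) and the corepressor SKIL (−1.01). SMAD3, which carries the TGF-β signal, was lower at 43.95 and 44.4 FPKM against 29.2 and 32.8 FPKM (log2 difference −0.50), and so was the ubiquitin ligase SMURF2 (−0.38). TGIF1, a corepressor of SMAD activity, was higher at 15.4 and 14.7 FPKM against 20.8 and 23.9 FPKM (log2 difference 0.54). Of 9 target genes tested, 3 were lower and 1 higher at the same threshold, beside the same shares of all genes. ID2 (−1.96), CCN2 (−1.61) and MSX2 (−0.60) were lower and CDKN1A (0.48) was higher. ID1 stood highest at 321.2 FPKM in the control libraries (mean), with a difference of −0.36 (adjusted p = 0.310 from limma). The adjusted p of the genes in this paragraph lay between 0.242 and 0.310 by limma.

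**Figure D4:**
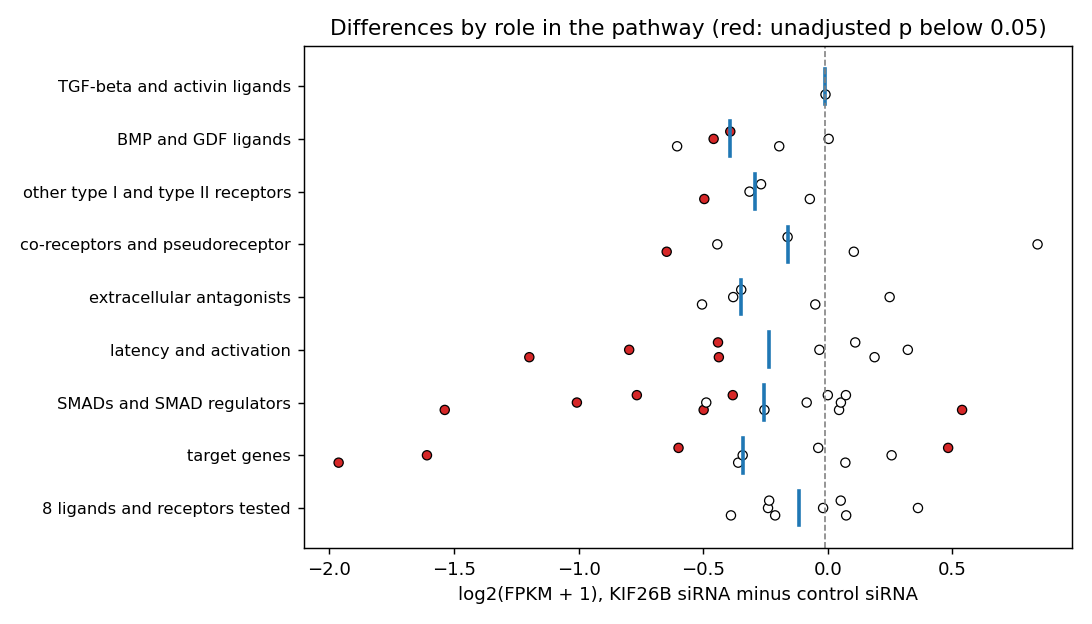
Log2(FPKM + 1) difference, KIF26B siRNA minus control siRNA, for each tested gene, by role. Red points had an unadjusted p below 0.05 from limma, blue bars are the medians of each row, the dashed line is the median of all genes tested at −0.01, and the height of a point within a row has no meaning. The bottom row holds the 8 ligands and receptors tested, with 0 red points.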

How the data were processed

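According to the Methods, poly(A) mRNA of HCT116 cells was sequenced as paired-end reads and aligned to hg19 with HISAT2. The submitters' processing notes name hg38, HISAT2 2.0.5 and featureCounts 1.5.0-p3, and the annotation is not given in the sources used here. The authors deposited FPKM, 1 value per gene and library. The unit was read from the values. Whole reads were recovered by searching, per gene, for a length that gives whole numbers in all 4 libraries (tolerance 0.001 reads), within 1% of the annotated exon length where there was one and otherwise the shortest. A length was found for 99.99% of the 34638 genes above 0. Genes with few reads allow several lengths, and too short a length undercounts reads, as is likely for ACVR1. Too long a length overcounts them. In both libraries labelled KIF26B siRNA the recovered reads exceeded the fragment number by which the FPKM were scaled, itself estimated from the values. These were 21376761 against 21363618 in library 1 and 19016643 against 18068934 in library 2.

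Ensembl identifiers were matched to GENCODE symbols of GRCh37 (56513 of 58735), and gene positions are from that annotation. Promoters are from RefSeq on GRCh38.p14, and positions of both builds should not be compared.

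Libraries were grouped by their titles. limma 3.58.1 in R 4.3.3 was fitted to log2(FPKM + 1) of the 14523 genes whose average over the libraries reached 1 FPKM, without a block, with 2 residual degrees of freedom. The members and lists were chosen with earlier results of these data known. Named genes of the lists were the 2 most abundant tested ones of each list and those with an unadjusted p below 0.05 and a log2 difference beyond 0.5. Data were simulated with the same dispersion of 0.01 in every library (14259 genes). There, 98.0% of genes raised by 1 and 97.8% lowered by 1 on the log2 scale had an unadjusted p below 0.05 from limma. Of unchanged genes, 4.56% did. The measured libraries labelled KIF26B siRNA differed by a median of 0.28 on the log2 scale and the controls by 0.07, which the simulation did not include. These shares therefore do not give the power for the measured genes, such as BMP4 with a standard error of 0.40. Alternatives were a pseudocount of 0.1, other filters, a replicate block, median-of-ratios scaling, a variance trend, limma-voom on the recovered reads and leaving out each library. Python 3.11.15, numpy 2.4.6, pandas 2.3.3, scipy 1.17.1 and matplotlib 3.10.9 were used.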

Additional observations from a re-analysis of the deposited data

How the results depend on the processing

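The 8 tested ligands and receptors kept their direction and stayed at an unadjusted p above 0.05 under each of the 7 alternatives that used all 4 libraries. With the replicate number as a block, 0 of the 8 had an unadjusted p below 0.05 and the smallest adjusted p was 0.495 by limma. Same-numbered libraries did not deviate together (correlation −0.003 across genes), the numbers share no stated source, and the block changed no call of a member. In the pathway lists the block gave 12 lower and 3 higher genes, where 5.93% and 5.95% of all genes were.

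Leaving out 1 library gave 0 to 4 members lower and 0 to 2 higher at an unadjusted p below 0.05. Across these 4 fits the difference ranged from −0.18 to 0.90 for BMP4, −0.47 to 0.043 for BMP7, −0.23 to 0.34 for TGFB1, −0.012 to 0.16 for TGFBR1 and −0.29 to 0.25 for TGFBR2, each changing sign with 1 library labelled KIF26B siRNA left out. The pathway lists gave 6 to 25 lower and 0 to 8 higher genes. Over all genes, 234 to 3435 were lower and 265 to 3326 higher at an unadjusted p below 0.05 (1261 and 1124 with all libraries), 123 to 223 and 156 to 334 also beyond a log2 difference of 1 (88 and 118), and 0 to 1247 and 0 to 1260 at an adjusted p below 0.05. With a library labelled KIF26B siRNA left out, the spread comes from the control pair alone.

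Over all genes, no filter gave 2186 lower and 2192 higher genes at an unadjusted p below 0.05 from limma. That fit tested all 34638 genes above 0 instead of 14523, so its counts cannot be set directly beside those of the main fit. Beyond a log2 difference of 1, a pseudocount of 0.1 gave 203 and 217, at least 1 FPKM in every library 52 and 69, where fewer genes are tested, and limma-voom 204 and 195, and otherwise the cause was not tested. KIF26B differed by −0.09 on the log2(FPKM + 1) scale, by −0.52 with a pseudocount of 0.1 and by −1.195 from reads without a pseudocount. Its 8 to 73 reads, and the 0 to 26 reads of BMP2 and TGFB2, limit what these 3 genes can show.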

Other observations

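In 2 further genes of the pathway lists, named after their values were seen, the library labelled KIF26B siRNA 2 stood far above the library labelled KIF26B siRNA 1, as TGFB1 did. LTBP4, which binds latent TGF-β, was at 37.2 and 39.4 FPKM in the control libraries and at 34.0 and 67.8 FPKM in the libraries labelled KIF26B siRNA 1 and 2. ENG, the co-receptor endoglin, was at 0.725 and 0.515 FPKM in the control libraries and at 1.15 and 2.90 FPKM in the others. Neither had an unadjusted p below 0.05 from limma with all libraries.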
